A study of Mus musculus with 10 samples.

Results

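The 10 genes described here encode proteins of the BCL2 family, which decide at the mitochondrion whether a cell lives or dies. They were taken by symbol from a count table of 33212 genes and grouped by role. Bbc3, Pmaip1, Bcl2l11, Bad and Bid encode BH3-only death signals, Bax and Bak1 encode the pore-forming effectors, and Bcl2, Bcl2l1 and Mcl1 encode the guardians that hold the effectors back. Of these 10 genes, 9 had enough counts to be tested, among 14156 testable genes in all. Polyadenylated RNA came from αTC1 cells, a mouse line made from a glucagon-producing pancreatic tumour that arose in mice carrying a viral T antigen oncogene. The line was grown in DMEM with 1 g/L glucose and 10% serum, and 5 libraries were made after 48 h in the solvent DMSO. Another 5 were made after 48 h in 10 μM enzalutamide, a blocker of the androgen receptor used against prostate cancer. The libraries held between 59557697 and 68603842 counts.

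In the mitochondrial pathway of apoptosis, BH3-only proteins rise in amount or become active when a cell is stressed, and bind guardians through a short helix called the BH3 domain. Some also engage BAX and BAK directly. Once freed or engaged, BAX and BAK open the outer mitochondrial membrane, cytochrome c escapes, and caspases are switched on. Much of this control lies in protein cleavage, phosphorylation and turnover, which transcript counts do not record.

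Enzalutamide-treated cells had more transcript of 3 BH3-only genes and less of 1 effector and 1 guardian. Bbc3, the gene of PUMA, roughly doubled, with a fold of 2.08, while Bad and Bid rose by 33.9% and 32.0%. Bak1 fell by 18.6% and Mcl1 fell by 8.73%. Bcl2l11, Bax, Bcl2 and Bcl2l1 did not pass the test, and Pmaip1 had no counts in any library. By edgeR's quasi-likelihood test with adjustment over all genes, 5 of the 9 tested members thus passed at an adjusted p under 0.05, against 37.8% of all tested genes. The share of all tested genes called higher was 19.0% and the share called lower was 18.8%, beside 3 and 2 of the 9 members. The groups' values did not overlap for 3 members (Bbc3, Bad and Bak1), beside 26.8% of all tested genes. The median absolute log2 fold change was 0.13 over the 9 members and 0.16 over all tested genes. In bulk RNA, fewer cells that carry a transcript and less of it in each cell cannot be told apart.

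Of the 4 tested BH3-only members, Bbc3 had the largest log2 difference. Levels are given in CPM, a gene's count relative to the scaled total of its library. PUMA binds all the main guardians and is a classical target of p53 and of FoxO factors. Bbc3 (ENSMUSG00000002083; chr7:16308393-16318205 of GRCm38/mm10) was at 7.6, 7.94, 7.86, 5.71 and 5.88 CPM in DMSO libraries 1 to 5. In enzalutamide libraries 1 to 5 it was at 13.9, 17.8, 14.2, 14.5 and 12.6 CPM. Every treated library was thus above every control library, and enzalutamide library 2 was the highest. The means were 7 ± 1.11 and 14.6 ± 1.92 CPM (SD, n = 5 each), a log2 difference of 1.06 with SE 0.11 (adjusted p = 8.35e-07). Only 1.43% of tested genes had a larger log2 fold change. The spread of Bbc3 between libraries, a coefficient of variation of 15.8% in DMSO, was above the 4.66% that counting error alone gives at its depth.

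Bad encodes a BH3-only protein that growth factor signalling holds inactive by phosphorylation. Bad (ENSMUSG00000024959; chr19:6941861-6951899) was at 25.5, 21.6, 25.5, 23.5 and 24.2 CPM in DMSO and at 32.8, 35.3, 29.5, 31.3 and 32.2 CPM in enzalutamide. The groups did not overlap, and enzalutamide library 2 was again the highest. Its mean went from 24.1 ± 1.65 to 32.2 ± 2.15 CPM, a log2 difference of 0.42 with SE 0.0593 (adjusted p = 2.41e-05). In the annotation 620 bases of Bad lie opposite Gpr137, a gene of the other strand with 28674 counts and a log2 fold change of 0.04 (adjusted p = 0.512). Whether counting used strand was not given in the sources used here. Such overlaps are given here between whole gene spans, introns included, and whether exons overlap was not examined. Where exons do overlap, reads there may not be assignable to either gene with certainty.

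Bid links death receptors to mitochondria, since caspase 8 cuts it into its active form. Bid (ENSMUSG00000004446; chr6:120891930-120916853) was at 6.52, 8.32, 9.17, 8.39 and 6.87 CPM in DMSO and at 11.6, 10.6, 11.4, 7.92 and 10.4 CPM in enzalutamide. The groups overlapped, because enzalutamide library 4 lay within the control range while the other 4 treated libraries lay above it. The log2 difference was 0.40 with SE 0.113 (adjusted p = 0.00922), with a highest adjusted p of 0.0303 when any 1 library was left out. In the annotation 913 bases of the gene span of Bid lie opposite Bcl2l13, another family gene, with 100759 counts beside 5988 for Bid. Bcl2l13 had a log2 fold change of 0.03 (adjusted p = 0.614).

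Bcl2l11 encodes BIM, which binds all guardians and can engage BAX, and whose protein is broken down after ERK phosphorylates it. Bcl2l11 (ENSMUSG00000027381; chr2:128126038-128162547) was at 59.1, 64.8, 58.0, 58.6 and 62.7 CPM in DMSO and at 69.9, 61.4, 61.4, 66.5 and 67.3 CPM in enzalutamide. Of the treated libraries 3 lay above all controls, and libraries 2 and 3 lay among them. The difference was 7.66% (95% interval 1.08 to 14.7%; unadjusted p = 0.035, adjusted p = 0.0831). It passed without DMSO library 2 (adjusted p = 0.0429), without enzalutamide library 2 (0.0395) and with libraries scaled to total counts (0.026).

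Pmaip1 encodes NOXA, a selective partner of MCL1 and a common target of p53 and of the ATF4 branch of the stress response. It had 0 counts in all 10 libraries, which allows up to 3 counts per library, or between 0.0439 and 0.0497 CPM, as far as counting error goes. The BH3-only members that could be measured were therefore 4 of 5.

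**Figure D1:**
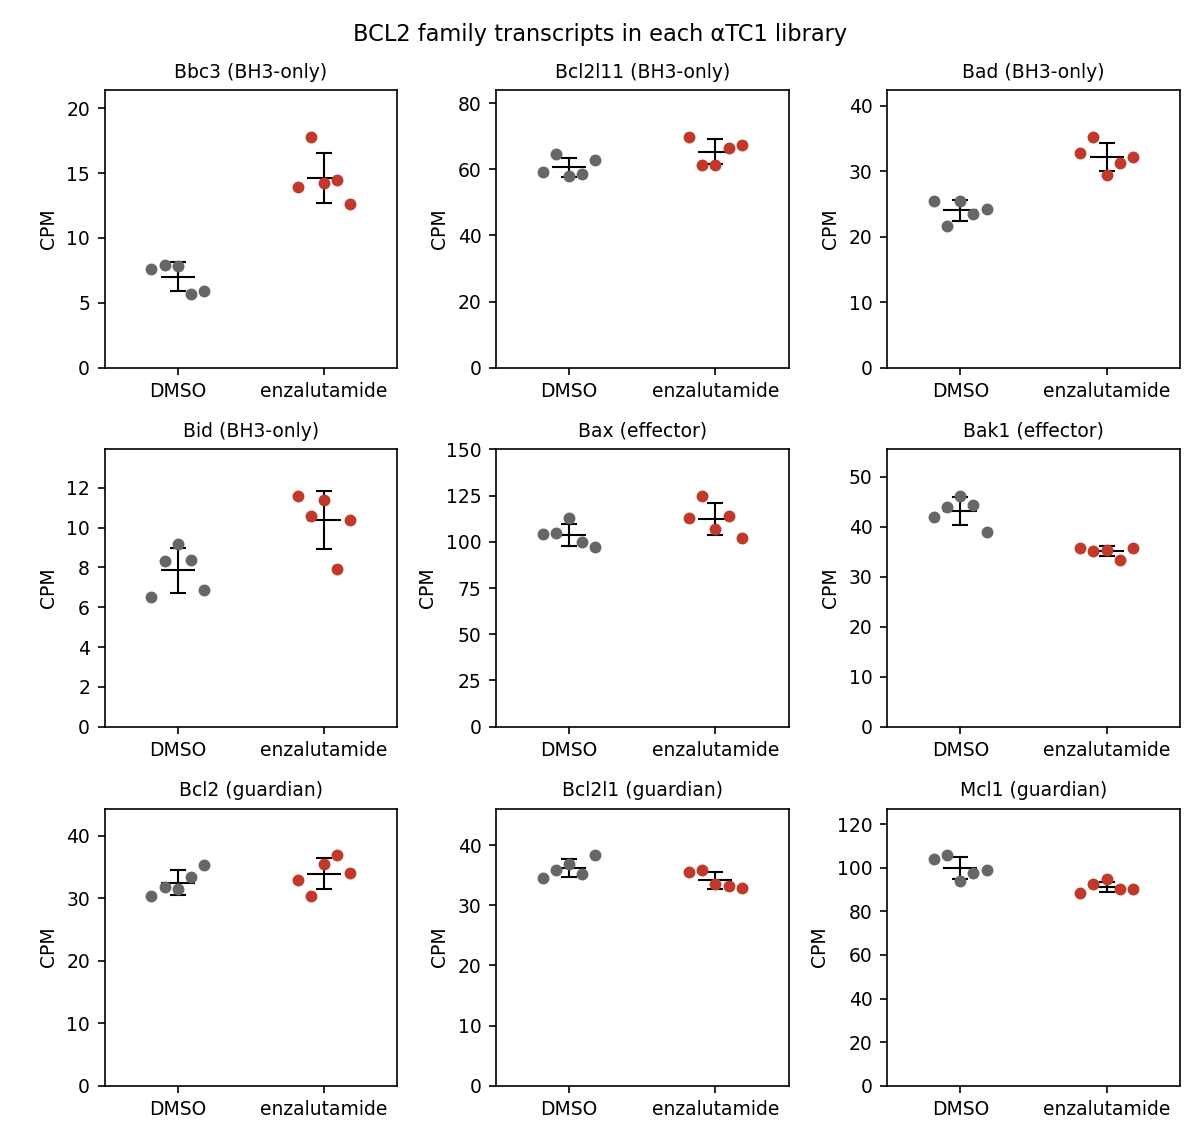
Each panel shows 1 gene, with its level in CPM on an axis from 0 and 1 point per library for DMSO (grey) and enzalutamide (red). Bars give the mean and SD over 5 libraries. The groups are fully apart for Bbc3, Bad and Bak1 and overlap for the other 6.

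The promoters of Bbc3 and Bcl2l11 are shown because they were the only members with a match to the FoxO motif TGTTTAC. Of 15 promoter windows from 9 members (RefSeq, GRCm38.p6, 250 bases before to 50 after an annotated start, both strands searched), 2 held it, beside 3.65% of 32851 windows of all genes. The bases before the start are printed here in the gene's direction, with the match in capitals. They lie at chr7:16310011-16310260 for Bbc3, before the second of its 3 starts by position, and at chr2:128125788-128126037 for Bcl2l11, before the first of its 2 starts. Both are on the plus strand, and neither overlaps an exon in GENCODE.
Bbc3: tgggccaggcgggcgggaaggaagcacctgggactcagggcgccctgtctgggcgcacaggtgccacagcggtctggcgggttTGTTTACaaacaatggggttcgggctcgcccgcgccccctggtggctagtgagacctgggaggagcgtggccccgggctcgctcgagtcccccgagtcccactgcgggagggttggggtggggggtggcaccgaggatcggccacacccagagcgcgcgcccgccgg
Bcl2l11: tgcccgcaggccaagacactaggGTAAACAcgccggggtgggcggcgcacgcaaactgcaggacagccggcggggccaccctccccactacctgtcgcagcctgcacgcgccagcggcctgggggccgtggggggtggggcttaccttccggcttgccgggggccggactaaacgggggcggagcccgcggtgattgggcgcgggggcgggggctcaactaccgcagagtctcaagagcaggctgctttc
Counted from the start, the match lay at -167 to -161 in Bbc3 and at -227 to -221 in Bcl2l11, where it was on the opposite strand. Foxo1 and Foxo3, whose products bind this motif, had log2 fold changes of -0.10 (adjusted p = 0.147) and 0.01 (adjusted p = 0.913). Foxo1 passed on leaving out DMSO library 2 (-0.14, adjusted p = 0.0424). The activity of the FoxO proteins was not measured. Of the other motifs searched, the E-box CACGTG was in windows of Bbc3 and Bax (7.15% of all windows) and a p53 half-site was in that of Bax (8.36%). An E2F motif (TTTGGCGC or TTTCGCGC) was in 1 of 3 windows of Bcl2l1 (0.813%). The ATF4 composite motif TGATGNAA (3.97%) and the AP-1 motif TGANTCA (7.81%) had no match in the members' windows. The members' windows held between 49.3 and 78% G and C, beside a median of 52.7% for all windows. The shares over all windows were not matched for this. A match is a run of letters and not a shown binding site, and it does not tell which factor might bind.

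Of the 2 effector genes, Bak1 fell and Bax did not pass the test. Bak1 encodes the effector that sits in the outer mitochondrial membrane of healthy cells, where MCL1 and BCL-XL restrain it. Bak1 (ENSMUSG00000057789; chr17:27019810-27029009) was at 41.9, 44.0, 46.2, 44.4 and 38.9 CPM in DMSO and at 35.8, 35.2, 35.3, 33.3 and 35.8 CPM in enzalutamide. All treated libraries lay below all controls and close to each other. The log2 difference was -0.30 with SE 0.0493 (adjusted p = 0.00013), and 10.9% of tested genes had a lower one. The whole span of Bak1, introns included, lies opposite Ggnbp1 in the annotation, and overlap of their exons was not examined. Ggnbp1 had 17187 counts beside 25697 for Bak1 and a log2 fold change of -0.14 (adjusted p = 0.339).

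Bax encodes the effector that stays mostly in the cytosol until it is activated. Bax (ENSMUSG00000003873; chr7:45461697-45466898) was at 104, 105, 113, 100 and 97.2 CPM in DMSO and at 113, 125, 107, 114 and 102 CPM in enzalutamide. The groups overlapped, with enzalutamide library 2 the highest. The difference was 7.82% (95% interval 0.603 to 15.6%; adjusted p = 0.107). It passed without enzalutamide library 5 (adjusted p = 0.0262), without DMSO library 3 (0.0482) and with libraries scaled to total counts (0.0328). A gene of the same strand, Gm45808, shares 915 bases of gene span with Bax and has no row in the table.

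Of the 3 guardian genes, 1 fell and 0 rose. Mcl1 encodes a short-lived guardian that depends on constant synthesis. Mcl1 (ENSMUSG00000038612; chr3:95658788-95663176) was at 104, 106, 93.7, 97.6 and 98.8 CPM in DMSO and at 88.6, 92.5, 94.7, 90.3 and 90.3 CPM in enzalutamide. The groups met only where enzalutamide library 3 exceeded DMSO library 3. The log2 difference was -0.13 with SE 0.0382 (adjusted p = 0.0111). With total-count scaling the adjusted p of Mcl1 was 0.0567.

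Bcl2l1 (ENSMUSG00000007659; chr2:152780668-152831728), the gene of BCL-XL, lay between 34.5 and 38.4 CPM in DMSO and between 32.8 and 35.9 CPM in enzalutamide. The difference was -5.44% (95% interval -11.2 to 0.709%; adjusted p = 0.191). Bcl2 (ENSMUSG00000057329; chr1:106538178-106714274), the founding member of the family, lay between 30.4 and 35.4 CPM in DMSO and between 30.4 and 37.0 CPM in enzalutamide. Its difference was 4.44% (95% interval -3.47 to 13.0%; adjusted p = 0.438). For both genes the groups overlapped, and the intervals hold changes in either direction.

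**Figure D2:**
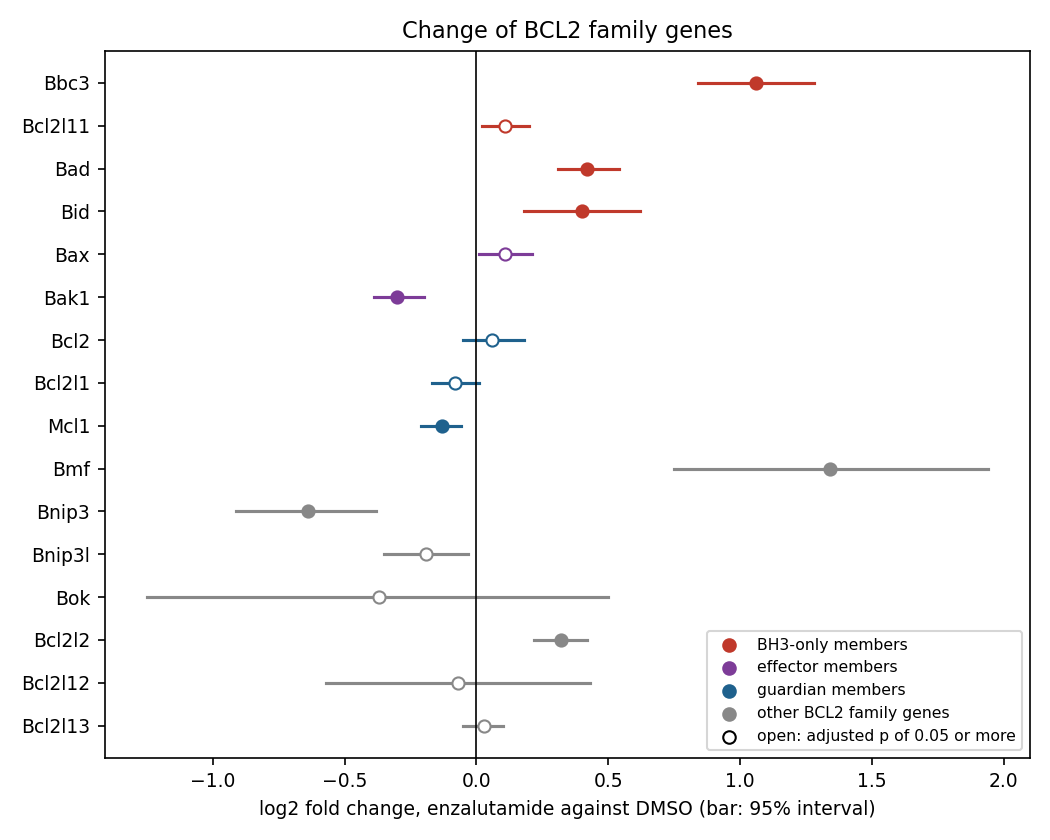
Log2 fold change of enzalutamide against DMSO on the horizontal axis with its 95% interval, for the 9 tested members and 7 other family genes, coloured by role; filled points passed the test. Bbc3 (1.06) and Bmf (1.34) lie farthest to the right and Bnip3 (-0.64) farthest to the left of the filled points.

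Levels of different genes were compared as CPM per kilobase of exon. Bax was the most abundant member in DMSO at 65.9 ± 3.73 CPM per kb, followed by Mcl1 at 29.3 ± 1.48 and Bak1 at 17.9 ± 1.15 CPM per kb. Bad (9.41), Bcl2l1 (7.88), Bcl2l11 (7.55), Bcl2 (3.55), Bbc3 (3.29) and Bid (2.21 CPM per kb) followed. In this order only the neighbours Bcl2l1 and Bcl2l11, and Bcl2 and Bbc3, overlapped between libraries. In enzalutamide Bbc3 stood above Bcl2, at 6.87 ± 0.904 against 3.71 ± 0.278 CPM per kb with no overlap, and its range reached that of Bcl2l1 (7.45 ± 0.307 CPM per kb). Bax (71.0), Mcl1 (26.7), Bak1 (14.6) and Bad (12.6 CPM per kb) kept the first 4 places. With the longest transcript as length, levels of Bad, Bcl2l1 and Bcl2l11 came out over 1.5 times as high. Bad (21 CPM per kb) then stood above Bak1 (14.7) in enzalutamide, and in DMSO the ranges of Bak1 and Bad overlapped.

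**Figure D3:**
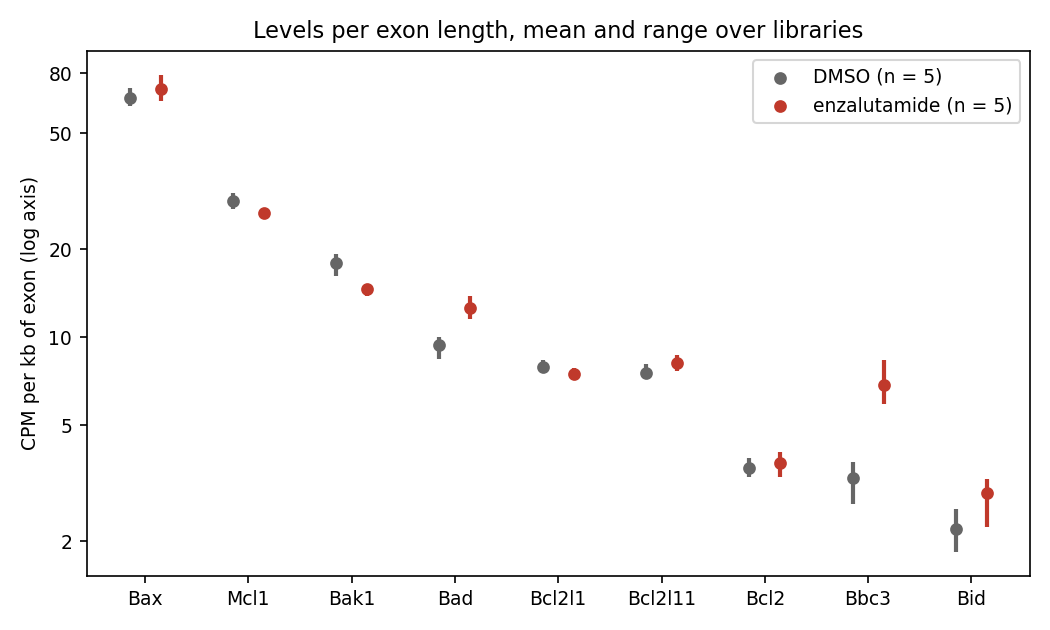
Level per kilobase of exon on a log axis for 9 members, ordered by their mean in DMSO. Points are means and lines the range over 5 libraries; Bax is highest in both groups, and Bbc3 is the gene whose 2 ranges lie farthest apart.

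Sums and shares by role were added after the data were seen. Summed by role, BH3-only transcripts came to 22.5 ± 0.757 CPM per kb in DMSO and 30.5 ± 1.52 in enzalutamide, with no overlap between libraries. The share of Bbc3 in this sum was 14.6 ± 1.93% in DMSO and 22.5 ± 2.20% in enzalutamide. Effector transcripts came to 83.8 ± 4.68 and 85.6 ± 5.46 CPM per kb, and guardian transcripts to 40.7 ± 1.36 and 37.9 ± 0.696 CPM per kb, with overlap in both cases. The log2 ratio of BH3-only to guardian sums was between -0.91 and -0.73 in DMSO libraries and between -0.42 and -0.22 in enzalutamide libraries. These sums weigh abundant genes most, and no test was made on them. They hold only the members. The guardian sum thus leaves out Bcl2l2, the gene of BCL-W, which rose from 32.3 ± 2.03 to 40.4 ± 1.98 CPM. The BH3-only sum leaves out Bmf, which also rose, from 0.708 to 1.8 CPM. Levels of Bcl2l2 and Bmf are in CPM not divided by exon length, so their rises cannot be set directly against the sums.

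Ratios within a library do not depend on how libraries are scaled. The log2 ratio of Bax to Bcl2, an often quoted index of readiness to die, was 4.21 ± 0.16 in DMSO and 4.26 ± 0.20 in enzalutamide, and the groups overlapped. The ratio of Bax to Bcl2l1 was 3.06 ± 0.11 in DMSO and 3.25 ± 0.08 in enzalutamide. The groups were only just apart, at up to 3.15 in DMSO and from 3.17 in enzalutamide, and neither gene passed the test alone. Bcl2l11 to Mcl1 lay between -2.04 and -1.89 in DMSO and between -1.86 and -1.57 in enzalutamide, a narrow gap. Bax to Bak1 was 1.88 ± 0.06 in DMSO and 2.28 ± 0.13 in enzalutamide, and the groups did not overlap.

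**Figure D4:**
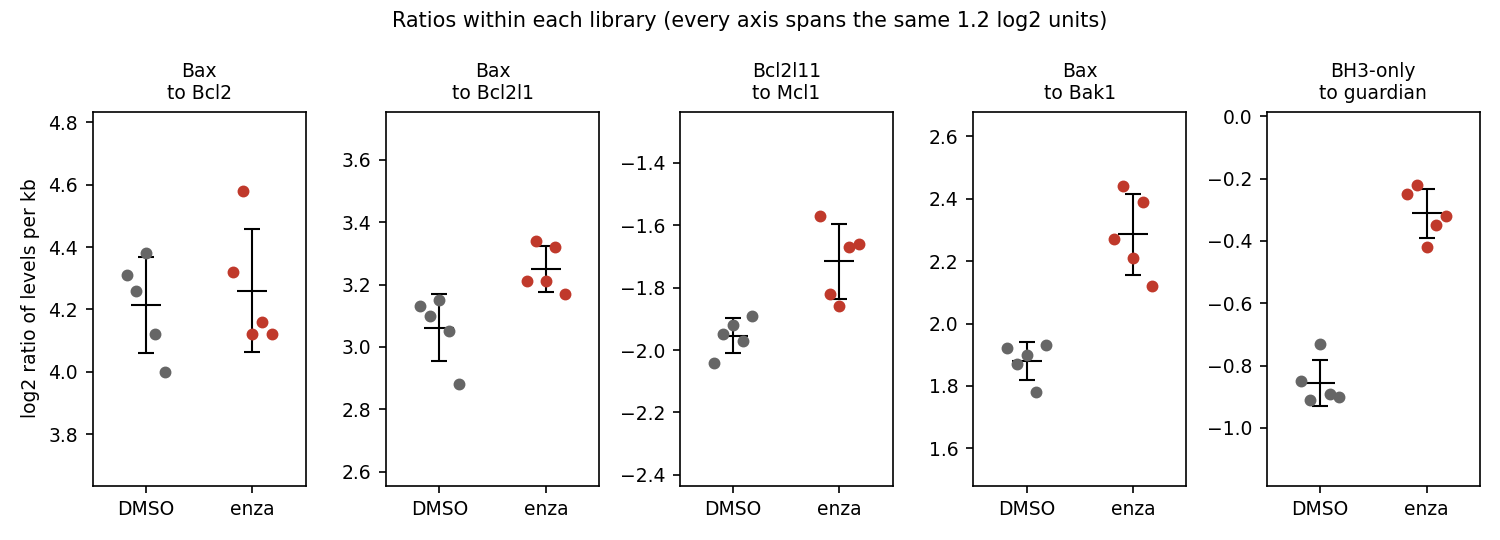
Log2 ratios of levels per kb within each library, 1 panel per pair, for DMSO (grey) and enzalutamide (red, labelled enza), with mean and SD over 5 libraries. The groups overlap for Bax to Bcl2 and are apart in the other 4 panels, though only just for Bax to Bcl2l1 and Bcl2l11 to Mcl1. Bax to Bak1 and BH3-only to guardian were added after values were seen. How often ratios of other genes lie apart was not examined.

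Beyond the 10 members, 16 further genes of the family were examined. Of these, 7 had enough counts to test, and 5 had no counts in any library, namely Bik and the 4 Bcl2a1 genes of blood cells. Among the 7 tested, 2 rose and 1 fell, beside 19.0% and 18.8% of all tested genes. Bmf, a BH3-only gene whose product is held on the cytoskeleton, was at 0.438, 0.536, 1.38, 0.71 and 0.471 CPM in DMSO and at 1.44, 2.11, 2.15, 1.77 and 1.52 CPM in enzalutamide. Its groups did not overlap, and its log2 difference was 1.34 with SE 0.302 (adjusted p = 0.00187). Bcl2l2, the guardian gene of BCL-W, rose from 32.3 ± 2.03 to 40.4 ± 1.98 CPM, by 0.32 on the log2 scale (SE 0.0524, adjusted p = 0.000114). Bnip3, a mitophagy gene with a BH3-like stretch that hypoxia induces, fell by 0.64 on the log2 scale (SE 0.136, adjusted p = 0.00112), with DMSO libraries 1 and 2 at 123 and 101 CPM and the other controls between 72 and 76.6 CPM. Bok, the third effector gene, was low in both groups, at 0.336 ± 0.182 and 0.259 ± 0.106 CPM. The median log2 fold change of these 7 genes was -0.07, beside 0.01 for all tested genes.

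Downstream of the effectors, 18 of 19 genes of the apoptosome, caspases and their inhibitors were tested. Of these, 2 rose and 6 fell, beside 19.0% and 18.8% of all tested genes. Birc5, the gene of survivin, which also serves in mitosis, fell from 103 ± 5.37 to 73.2 ± 3.69 CPM (log2 fold change -0.50, adjusted p = 1.26e-07). Diablo, whose product counters caspase inhibitors, fell from 74.7 ± 2.38 to 64.6 ± 3.01 CPM (-0.21, adjusted p = 0.000457). Against these, Casp9, the caspase of the apoptosome, rose from 24.2 ± 0.475 to 29.2 ± 1.77 CPM (0.27, adjusted p = 0.000385), with no overlap between groups. Birc2, a ubiquitin ligase of the inhibitor family, rose by 0.13 on the log2 scale (adjusted p = 0.0262), and this call was lost on leaving out DMSO library 2, DMSO library 3, enzalutamide library 1 or enzalutamide library 5 (adjusted p up to 0.0726). The median log2 difference of the list was -0.04, beside 0.01 over all tested genes.

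Of 10 death receptor and adaptor genes, 8 were tested, 1 rose and 2 fell, beside 19.0% and 18.8% of all tested genes. Their median log2 fold change was -0.00, beside 0.01 for all tested genes. Traf2, an adaptor of the TNF receptors, fell from 33.4 ± 1.10 to 28.2 ± 0.891 CPM (log2 fold change -0.24, adjusted p = 0.000362). Ripk1, a kinase of the same complex, fell by 0.13 on the log2 scale (adjusted p = 0.0247). Tnfrsf21, the gene of death receptor DR6, rose by 0.13 (adjusted p = 0.0386). The call for Ripk1 was lost on leaving out control library 2, 4 or 5 or treated library 3 (up to 0.0734) and with total-count scaling (0.0917). The call for Tnfrsf21 was lost on leaving out control library 1, 2, 3 or 5 or treated library 2, 3 or 5 (up to 0.111) and without a filter on low counts (0.0695).

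Of 18 genes whose products hold or turn over the members, 8 fell and 2 rose, beside 18.8% and 19.0% of all tested genes. Ywhaz, Ywhaq and Ywhae encode 14-3-3 proteins, which hold phosphorylated BAD in the cytosol. Ywhaz fell from 544 ± 12.4 to 428 ± 8.38 CPM (log2 fold change -0.35, adjusted p = 2.33e-08), Ywhaq by 0.27 and Ywhae by 0.25 on the log2 scale. Dynll1, a dynein light chain that binds BIM, fell from 101 ± 4.08 to 75.8 ± 3.6 CPM (-0.42, adjusted p = 3.62e-07). Sfn, the 14-3-3 gene that p53 is known to induce, rose from 3.81 ± 0.490 to 5.86 ± 0.637 CPM (0.62, adjusted p = 0.000482). Fbxw7, part of a ubiquitin ligase that marks MCL1, rose by 0.18 (adjusted p = 0.0223, and up to 0.0578 on leaving out control library 1 or 3 or treated library 5). Ywhaq, and Cycs of the apoptosome list, have processed copies elsewhere in the genome, so their counts are less certain. Whether the other listed genes have such copies is not given here. The median of the list was -0.06, beside 0.01 for all tested genes.

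Among 15 transcription factor genes with known targets in the family, 7 rose and 1 fell, beside 19.0% and 18.8% of all tested genes. Their median log2 fold change was 0.05, beside 0.01 for all tested genes. Ddit3, the gene of the stress factor CHOP, rose from 19.3 ± 1.02 to 65.3 ± 4.84 CPM (log2 fold change 1.76, adjusted p = 2.72e-13), and Atf4 rose from 312 ± 12.2 to 486 ± 29.5 CPM (0.64, adjusted p = 1.93e-09). Myc, which drives growth and sensitises cells to death, rose from 0.637 ± 0.294 to 4.18 ± 1.05 CPM (2.71, adjusted p = 4.21e-07), still a low level. Stat5b, a factor of cytokine signalling, rose by 0.28 (adjusted p = 9.76e-06), and Creb1, a cAMP-responsive factor, fell by 0.16 (adjusted p = 0.00176). Trp53, the gene of p53, was at 64.9 ± 2.16 and 63.8 ± 3.74 CPM (log2 fold change -0.02, adjusted p = 0.713). The activity of these factors as proteins was not measured.

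**Figure D5:**
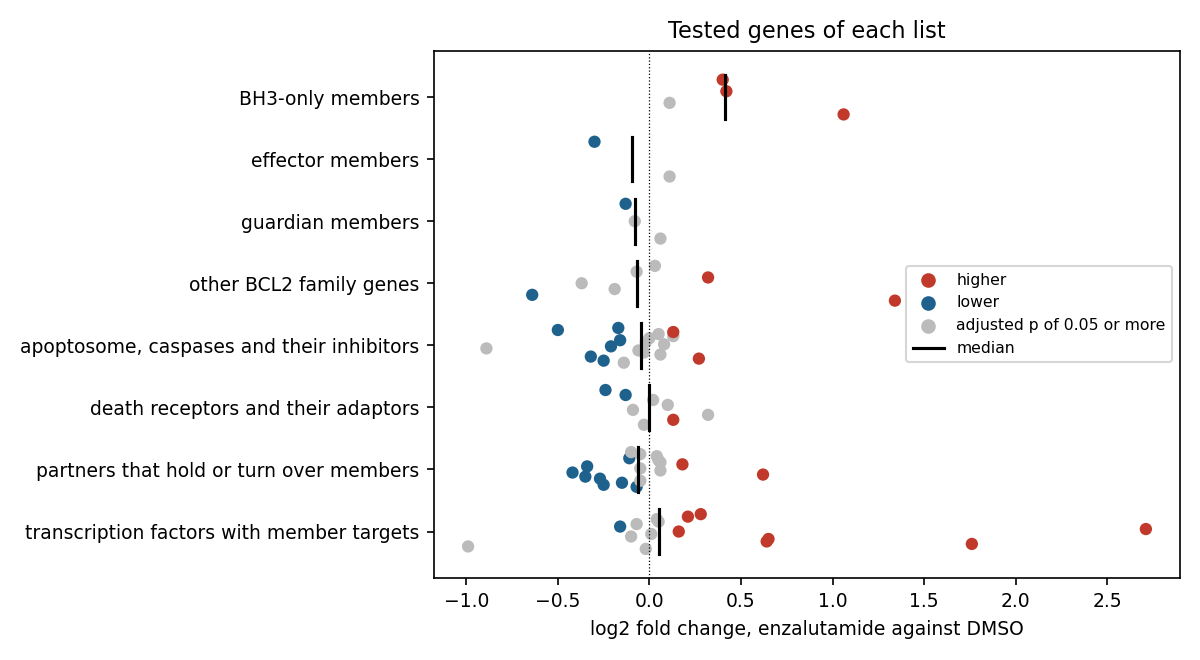
Log2 fold change of each tested gene, 1 row per list, with red for higher, blue for lower and grey for an adjusted p of 0.05 or more; black lines are medians. The BH3-only row has its median at 0.41, the other rows lie between -0.09 and 0.05.

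The α cell label was checked in the same libraries. Of 6 α cell markers all were expressed, led by Gcg, the glucagon gene, and 4 fell in enzalutamide, beside 18.8% of all tested genes. Their summed level was between 18264 and 19484 CPM in DMSO and between 10788 and 12064 CPM in enzalutamide. The 4 β cell markers summed to at most 2.84 CPM in any library, with Ins1 and Pdx1 at 0. Sst, Ppy, Krt19, Ptprc and Cdh5, markers of other islet, duct, blood and vessel cells, were also at 0 in every library. Hhex, a further marker of other islet cells, had 8 counts, all in enzalutamide library 2. Cpa1, an acinar marker, had 7 counts, all in enzalutamide library 1. Of the markers of acinar and duct cells, Cela1 and Sox9 were expressed, and the list summed to between 16.9 and 19.3 CPM in DMSO and between 14.7 and 18.3 CPM in enzalutamide. Blood and vessel markers, 3 of 4 of which were in the table, summed to at most 0.592 CPM. Fibroblast markers summed to between 5.62 and 6.54 CPM in DMSO and between 7.23 and 9.19 CPM in enzalutamide, led by Pdgfra, which rose by 0.37 on the log2 scale (adjusted p = 0.00212). Col1a1 had counts in 4 libraries, with 1.03 CPM in enzalutamide library 1, and Col3a1 had counts in 1. The part of these markers in the members' differences was not tested. Mitochondrial transcripts made up 6.33 ± 0.188% of all counts in the controls and 7.41 ± 0.268% after treatment, and the part of that shift was not tested either.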

How the data were processed

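Counts per Ensembl gene, as deposited by the authors, were used for 10 libraries, 5 per group by title. Tools named in the submitters' processing notes are StringTie, HISAT2 and DESeq2, with build mm10 and no versions or roles. Which counter was used, its strand setting and its handling of multiply mapped reads were not given in the sources used here. A second deposited table, of scaled values, was not used, and 0 columns of per-library values in the count table were left unused. The test was the quasi-likelihood one of edgeR 4.0.16 (R 4.3.3), after filterByExpr and scaling by the trimmed mean of M values. No covariate was used, p-values were adjusted by Benjamini and Hochberg's method over 14156 genes, and the threshold was 0.05. The SE is the absolute log2 fold change over the square root of F, and 95% intervals are normal. Alternatives used limma 3.58.1 and DESeq2 1.42.0. The test was run on simulated data first.

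The members and lists were chosen with earlier results of these data known. The rule named all members and, in each list, up to 4 passing genes with the lowest adjusted p and those against the majority. One gene that the rule named is not reported here. Foxo1, Foxo3, Trp53, Bok, Bcl2l13, Tnfrsf10b, Fas, the overlapping genes, the role sums and 2 of the ratios (Bax to Bak1, BH3-only to guardian) were added after values were seen. The promoter and motif search was not planned beforehand. Gene models were GENCODE M21 on GRCm38/mm10, where 96.5% of identifiers were found. All libraries of a group differed by more than sampling noise (the lowest chi-square over its degrees of freedom was 9.2), and each was counted once. The labels call the libraries biological replicates without naming separate cultures. The p-values thus set the group difference against the spread between these samples, which may or may not include that between cultures.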

Additional observations from a re-analysis of the deposited data

Results flagged for a closer look

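Of 18 groups of 5 libraries (9 members in DMSO and in enzalutamide), 1 held a library apart from the rest of its group. Bak1 was at 33.3 CPM in enzalutamide library 4, below the 35.2 to 35.8 CPM of the other treated libraries, a gap that was 0.754 of the range of the group. Chance alone sets about 1 group in 20 apart in this way. Without that library Bak1 still passed.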

How the results depend on the processing

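Across 18 alternatives, the 9 tested members kept the direction of their log2 fold change in all 162 values, and 155 stayed on the same side of the threshold. With libraries scaled to total counts, 5 members were higher and 1 was lower, in place of 3 and 2, since Bcl2l11 and Bax passed and Mcl1 did not. That scaling called 60.7% of changed genes higher, against 50.3% in the main test. With any 1 library left out, between 3 and 4 members were higher and 2 were lower. The deviations of same-numbered libraries did not settle whether these were paired. Their correlations were weak, between -0.00849 and 0.0451, yet 3 of 5 DMSO libraries matched their own number best. With the replicate number as a block, 3 members were higher, 2 lower and 5296 genes were called in all. The log2 fold change of Trp53 turned to 0.01 with total-count scaling and ranged from -0.04 to 0.01 with 1 library left out. That of Foxo3 ranged from -0.03 to 0.03 with 1 library left out, with -0.00 without DMSO replicate 5, and was 0.04 with total-count scaling. The cause was not tested. Neither gene passed under any of the 18. Depth limits what can be said of Pmaip1, Bok and Bmf.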

Other observations

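Tnfrsf10b, the gene of the death receptor that CHOP is known to induce, was too low to test and was chosen here after its values were seen. It had 24, 10, 9, 9 and 12 counts in DMSO libraries 1 to 5 and 0 in every enzalutamide library, where a count of 0 allows up to 3 counts. Ddit3 was 3.38-fold higher in enzalutamide, and a link between these genes was not tested. Fas, a death receptor gene that p53 is known to induce, was also too low to test, with between 0 and 4 counts per DMSO library and between 0 and 13 per enzalutamide library.

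Over the 10 libraries, the level of Bbc3 (log2 CPM) ran closest to that of Ctsa, a lysosomal carboxypeptidase (Pearson r = 0.992), Lima1, an actin-binding protein (0.989), and Lrfn3, a neuronal adhesion protein (0.986). All 3 were higher in enzalutamide, with log2 fold changes of 0.32, 0.86 and 0.39. Bak1 ran closest to Las1l, a ribosome assembly factor (0.978), Cyfip1, a regulator of actin and translation (0.97), and Srxn1, an antioxidant enzyme (0.966). These had log2 fold changes of -0.11, -0.22 and -0.31. Such values describe 10 libraries whose 2 groups differ, and genes called in the same direction share that difference.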
